A study of Mus musculus with 2 samples.

Results

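The visual cycle returns the spent chromophore of the photoreceptors to its light-sensitive form, and 9 genes of this cycle were followed through a mouse model of oxygen-induced retinopathy (OIR). They were taken by symbol from the 47644 genes of the table, and each of the 9 symbols occurred on 1 row. The OIR sample was the eyeball of C57BL/6 mice that entered a closed hyperoxia chamber at day 7, spent 5 days there and were kept in room air afterwards, with eyes removed at day 17. The control sample was the eyeball of C57BL/6 mice with no oxygen exposure named in its labels. In OIR, high oxygen stops vessel growth and closes vessels in the young retina, which then becomes hypoxic in room air. Each group was 1 library, so no difference below has a replicate check and no test was made. The labels do not give the number of animals or eyes behind a library, their sex, or the day on which the control eyes were taken. By the stated aim of the series, the comparison addresses what accompanies lasting visual dysfunction in this model.

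Light turns 11-cis-retinal, the chromophore of the opsins, into all-trans-retinal. Photoreceptors reduce it to retinol, the retinal pigment epithelium esterifies, isomerises and oxidises it back to 11-cis-retinal, and binding proteins carry the retinoids between and within the cells. A second route through Müller glia serves the cones. By cell of action, Rdh8, Rdh12, Abca4 and Rbp3 belong to photoreceptors and Rpe65, Lrat and Rdh5 to the pigment epithelium, while Rlbp1 and Rdh10 act in both the pigment epithelium and Müller glia. Whole eyeballs hold all of these cells beside lens, cornea and iris, and in such bulk samples fewer cells of a type cannot be told apart from less RNA per cell.

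The OIR library held 20378793 reads on genes and the control library 15741235. Levels are given as FPKM, the authors' read counts scaled for transcript length and library size. A difference is log2(FPKM + 1) in OIR minus that in the control, over the 15883 genes that reached 1 FPKM in OIR or control, called tested genes. A ratio is the gene's share of reads in OIR over its share in the control, with an exact conditional 95% interval that covers counting error only. Retinal genes were abundant, as the eyeball label implies, and 16 rod markers together took 3.25% of reads in OIR eyes, against 3.23% in control eyes. Other tissues of the eyeball took different shares in the libraries. Lens genes took 18.4% of reads in OIR eyes, against 24.3% in control eyes, and corneal epithelium genes 0.261% and 0.109%, with 10 of 12 corneal genes at least 1.5-fold higher. Ribosomal RNA genes took 0.153% of reads in OIR eyes, against 0.00791% in control eyes.

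The visual cycle genes did not move in 1 direction. The photoreceptor genes Rbp3, Rdh8 and Abca4 stood higher in OIR and Rdh12 slightly lower, the pigment epithelium genes Rpe65 and Lrat were close to equal in both libraries, and the genes shared with Müller glia parted, with Rdh10 higher and Rlbp1 lower. None of the 9 was 2-fold higher or lower, against 3.07% of tested genes higher and 0.718% lower. Rbp3 and Rdh10 were at least 1.5-fold higher, 2 of 9, against 9.11% of tested genes, and none was 1.5-fold lower, against 2.58%. With the authors' own scaling factors, which shift log2 ratios by -0.14, that count became 0 higher and 1 lower, Rlbp1. A difference above 0 was found for 6 of the 9 and for 64.9% of tested genes. The median difference of the 9 was 0.30 and that of all tested genes 0.11. The counting interval lay above 1 for 5 of the 9 and below 1 for 2, while 36.7% and 14.7% of tested genes had such intervals. Among tested genes with at least as many reads as the scarcest of the 9, Lrat, with 1658 over both libraries, the shares were 52.3% and 22.7%, so the count of such intervals among the 9 was near that of other genes read as deeply.

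**Figure D1:**
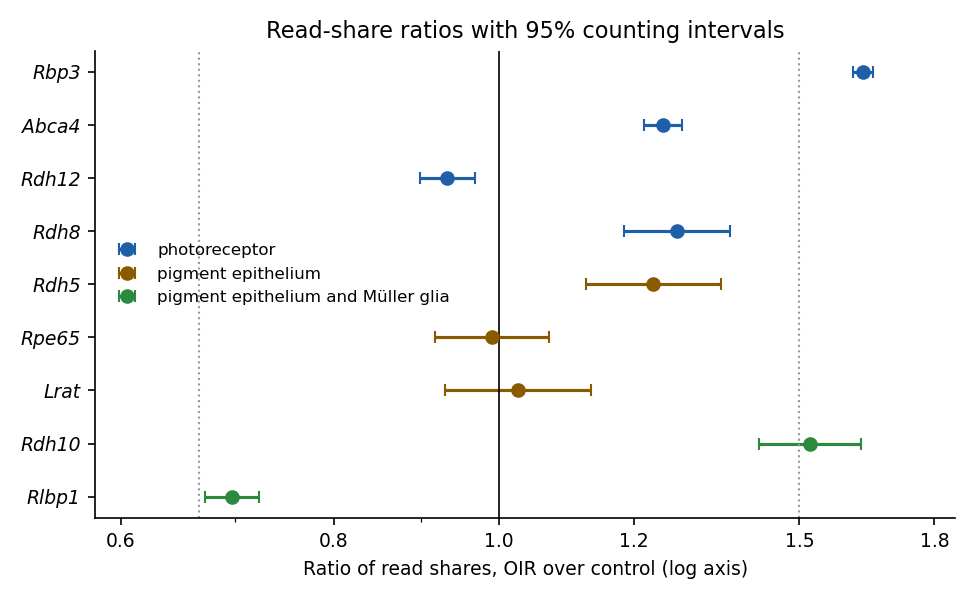
Ratio of read shares, OIR over control, on a log axis for the 9 genes, coloured by cell of action. Points are the ratios, bars the exact 95% counting intervals, the solid line marks 1 and the dotted lines mark 1.5-fold either way. The intervals of Rpe65 and Lrat cross 1, Rbp3 lies farthest right at 1.63 and Rlbp1 farthest left at 0.698.

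The genes of photoreceptors began with the carrier between the cells. Rbp3 encodes the interphotoreceptor retinoid-binding protein, which photoreceptors secrete into the space between the outer segments and the pigment epithelium (ENSMUSG00000041534, mm10 chromosome 14, 33954022 to 33964216). It had 65800 reads in OIR eyes, against 31088 in control eyes, or 612 and 374 FPKM. The ratio was 1.63 (1.61 to 1.66) and the difference 0.71, higher than 93.9% of tested genes. Rbp3 was the most abundant of the 9 per length in the OIR library, and it gave 73.0% of the reads of the 4 photoreceptor genes there and 65.5% in the control. These 4 genes together took 0.442% of reads in OIR eyes (0.440 to 0.445), against 0.301% in control eyes (0.299 to 0.304), a ratio of 1.47 (1.45 to 1.48), and without Rbp3 the other three had a ratio of 1.15 (1.13 to 1.17).

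Abca4 encodes the transporter that moves retinal bound to phosphatidylethanolamine across the disc membrane of the outer segment (ENSMUSG00000028125, chromosome 3, 122044443 to 122180123). It had 16064 reads in OIR eyes, against 9941 in control eyes, or 378 and 303 FPKM, a ratio of 1.25 (1.22 to 1.28). The difference of 0.32 exceeded that of 75.3% of tested genes. A pair of genes on the opposite strand overlaps its span, with 23 reads between them in OIR eyes, against 5 in control eyes, which is little beside the reads of Abca4. The sources used here do not say if strand was used in counting.

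The retinol dehydrogenases of photoreceptors reduce all-trans-retinal to retinol, Rdh8 in the outer segment and Rdh12 in the inner segment. Rdh8 (ENSMUSG00000053773, chromosome 9, 20818504 to 20826163) had 2038 reads in OIR eyes, against 1238 in control eyes, or 69.0 and 54.2 FPKM, a ratio of 1.27 (1.18 to 1.37). Rdh12 (ENSMUSG00000021123, chromosome 12, 79208914 to 79222665) had 6247 and 5175 reads, or 185 FPKM in OIR eyes, against 199 in control eyes, a ratio of 0.932 (0.899 to 0.968). The outer segment enzyme thus stood higher in the OIR library and the inner segment enzyme lower. There were 0.326 reads of Rdh8 for each of Rdh12 in OIR eyes, against 0.239 in control eyes, a quotient of 1.36 with a 95% Wald interval of 1.26 to 1.48. The sign of the Rdh12 difference, -0.10, held under all 13 other settings, with a range of -0.24 to -0.003. Not all of these could have changed it. A changed FPKM filter leaves a gene's own difference as it is. The pseudocount, CPM and deposited length barely alter it at this level.

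In the pigment epithelium the isomerase and the esterase were level between the libraries. Rpe65 encodes the isomerohydrolase that turns retinyl esters into 11-cis-retinol (ENSMUSG00000028174, chromosome 3, 159599175 to 159625321). It had 1517 reads in OIR eyes, against 1183 in control eyes, or 54.4 and 54.9 FPKM, a ratio of 0.991 (0.917 to 1.07). Lrat encodes the lecithin retinol acyltransferase that makes the esters Rpe65 uses (ENSMUSG00000028003, chromosome 3, 82892579 to 82903973). It had 946 and 712 reads, or 8.68 FPKM in OIR eyes, against 8.45 in control eyes, a ratio of 1.03 (0.930 to 1.13). Both intervals include 1, and the sign of either small difference turned with the scaling: Rpe65, at -0.01, lay between -0.15 and 0.08 under other settings, and Lrat, at 0.03, between -0.20 and 0.12.

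Rdh5, the 11-cis-retinol dehydrogenase of the last step of the cycle, stood higher in OIR (ENSMUSG00000025350, chromosome 10, 128913593 to 128922888). It had 1224 reads in OIR eyes, against 768 in control eyes, or 74.8 and 60.8 FPKM. The ratio was 1.23 (1.12 to 1.35) and the difference 0.30. Its span overlaps Bloc1s1 on the same strand, which has 6 reads in OIR eyes, against 9 in control eyes, so the reads of the shared stretch are uncertain. The 3 genes that act in the pigment epithelium alone took 0.0181% of reads in OIR eyes, against 0.0169% in control eyes, a ratio of 1.07 (1.02 to 1.12).

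The genes shared by the pigment epithelium and Müller glia differed in opposite directions. Rdh10 oxidises all-trans-retinol and also feeds retinoic acid synthesis (ENSMUSG00000025921, chromosome 1, 16105774 to 16133734). It had 2482 reads in OIR eyes, against 1260 in control eyes, or 43.9 and 28.9 FPKM, a ratio of 1.52 (1.42 to 1.63), and its difference of 0.59 was only just past 1.5-fold, which is 0.585 on this scale. Rlbp1 encodes the cellular retinaldehyde-binding protein, which holds 11-cis retinoids inside these cells (ENSMUSG00000039194, chromosome 7, 79374870 to 79387048). It had 5466 reads in OIR eyes, against 6052 in control eyes, or 256 and 368 FPKM, a ratio of 0.698 (0.672 to 0.724). Its difference of -0.52 was lower than all but 3.61% of tested genes. There were 0.454 reads of Rdh10 for each of Rlbp1 in OIR eyes, against 0.208 in control eyes, a 2.18-fold difference with a 95% Wald interval of 2.02 to 2.36. That quotient does not depend on the scaling of the libraries.

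Ordered by ratio, the genes ran Rbp3, Rdh10, Rdh8, Abca4, Rdh5, Lrat, Rpe65, Rdh12 and Rlbp1. Within this order Rdh8 and Abca4, Abca4 and Rdh5, Lrat and Rpe65, and Rpe65 and Rdh12 did not differ beyond counting error. The other neighbours did, Rbp3 over Rdh10 narrowly, with a quotient of 1.07 (1.00 to 1.15). The intervals below 1 were those of Rdh12, a photoreceptor gene, and Rlbp1, a shared gene, and none of the genes of the pigment epithelium alone had one.

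**Figure D2:**
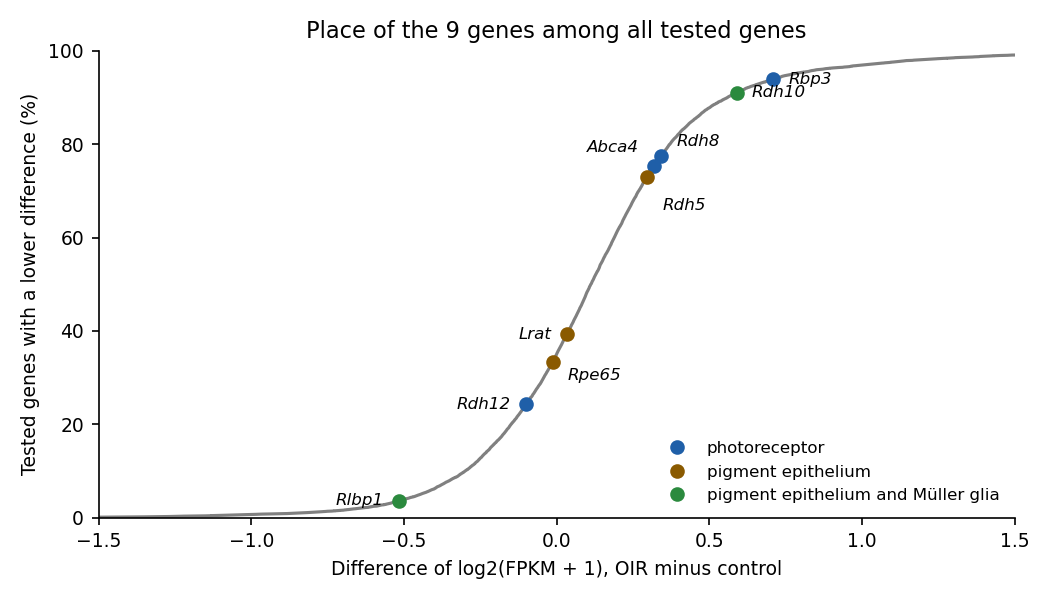
Cumulative curve of differences in log2(FPKM + 1), OIR minus control, over all 15883 tested genes, with the percentage of genes below each difference on the vertical axis. Coloured points mark the 9 genes by cell of action. They spread from Rlbp1, with 3.61% of tested genes below it, to Rbp3, with 93.9%.

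The 220 bases from 250 to 31 bases before the RefSeq start of the gene are shown for the highest and lowest ratio, Rbp3 and Rlbp1, for Abca4, and for Rpe65, the enzyme that defines the cycle in the pigment epithelium (RefSeq, build GRCm38.p6, each 5′ to 3′ along its gene). Capitals mark TAATCC or its reverse complement GGATTA, the core recognised by the photoreceptor and pigment epithelium homeodomain factors CRX and OTX2.
Rbp3 (chr14:33953753-33953972, plus strand): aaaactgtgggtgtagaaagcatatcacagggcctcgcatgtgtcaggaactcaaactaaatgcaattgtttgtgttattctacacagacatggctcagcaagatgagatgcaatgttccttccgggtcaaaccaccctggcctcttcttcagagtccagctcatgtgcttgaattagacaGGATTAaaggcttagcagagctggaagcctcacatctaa
Abca4 (chr3:122044210-122044429, plus strand): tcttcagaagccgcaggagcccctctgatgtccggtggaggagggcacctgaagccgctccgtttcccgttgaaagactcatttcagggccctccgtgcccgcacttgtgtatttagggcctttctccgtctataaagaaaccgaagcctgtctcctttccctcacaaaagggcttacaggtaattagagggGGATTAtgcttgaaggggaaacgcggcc
Rpe65 (chr3:159598931-159599150, plus strand): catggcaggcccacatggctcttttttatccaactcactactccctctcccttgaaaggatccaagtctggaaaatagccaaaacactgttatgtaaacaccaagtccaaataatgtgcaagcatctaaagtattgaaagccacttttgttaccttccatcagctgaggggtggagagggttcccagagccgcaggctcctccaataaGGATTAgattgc
Rlbp1 (chr7:79387058-79387277, minus strand): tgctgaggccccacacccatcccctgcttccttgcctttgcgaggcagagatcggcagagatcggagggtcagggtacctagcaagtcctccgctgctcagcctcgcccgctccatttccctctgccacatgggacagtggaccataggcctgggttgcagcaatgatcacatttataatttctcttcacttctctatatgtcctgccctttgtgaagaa
The table held such a stretch for 8 of the 9 genes, Rdh10 being the one without. The core occurred in Rbp3, Abca4 and Rpe65, 3 of the 8, and in 5.64% of all 32851 stretches of this kind. The hypoxia response core was searched as ACGTG and GCGTG on both strands. ACGTG occurred in none of the 8 and in 14.4% of all stretches, and GCGTG occurred in Lrat and Rdh12 and in 25.1% of all stretches. Of the genes with the TAATCC core, Rbp3 and Abca4 had ratios of 1.63 and 1.25, and Rpe65 was level at 0.991. A link between the core and the ratios was not tested.

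The photoreceptor genes were set beside markers of their cells. The 16 rod markers had a median difference of 0.05, from -0.48 for Gngt1, a transducin subunit, to 0.30 for Cngb1, a channel subunit. Rbp3, Rdh8 and Abca4 had higher differences than all 16, and Rdh12 lay below 12 of them. The counting intervals of Rdh8 and Abca4 overlap that of Cngb1, 1.195 to 1.265, while that of Rbp3 does not. The 11 cone markers had a median of 0.01 and ran from -0.48 for Arr3, the cone arrestin, to 1.12 for Gnb3, a transducin subunit found in cones and bipolar cells. Rbp3 lay above 10 of these 11, all but Gnb3, and Rdh8 and Abca4 above 9. Set against the median rod marker, Rbp3 was 0.66 higher, Rdh8 0.29 and Abca4 0.27, and Rdh12 stood at -0.15.

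The pigment epithelium markers, of which 15 of 16 were tested, had a median difference of -0.08. They ran from -0.53 for Pmel, a melanosome protein that melanocytes also make, to 0.52 for Slc16a8, the lactate transporter of this epithelium, whose span overlaps Pick1. Best1, the bestrophin gene that defines the type, had only 13 reads in OIR eyes, against 6 in control eyes, and reached 1 FPKM in neither library. The summed level of the list was 1289 FPKM in OIR eyes, against 1400 in control eyes, and its pigment genes are also used by the iris and choroid. Rdh10 had a higher difference than all 15 of these markers, Rdh5 than 12, Lrat than 9 and Rpe65 than 8. Rlbp1 lay below 13 of the 15. Among the 15, 7 were above 0 and 8 below. The 8 below were the pigment genes Tyr, Tyrp1, Dct, Pmel, Mlana and Mitf, with Rrh and Serpinf1. Those 8 were the markers that Rpe65 exceeded. All 7 above 0 lay above Rpe65, and all of them but Gpr143 lay above Lrat.

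Among 14 Müller glia markers the median difference was -0.12, with 5 above 0 and 9 below. Glul, the glutamine synthetase, stood at 1017 FPKM in OIR eyes, against 1753 in control eyes, a difference of -0.79, while Crym, the mu-crystallin that binds thyroid hormone, and Sox9, a transcription factor, had differences of 1.48 and 1.12. The summed level of the list was 3988 FPKM in OIR eyes, against 4846 in control eyes. Rlbp1 was therefore on the side of Glul and below 12 of the 14, while Rdh10 lay above 12 of the 14. The summed reads of Müller glia markers had a ratio of 0.836 (0.828 to 0.843) and those of the pigment epithelium list 0.899 (0.887 to 0.912), and their part in the lower share of Rlbp1 was not tested. Such sums rest mostly on the abundant genes. Glul had the most reads of the Müller glia list, 20082 in OIR eyes, against 26746 in control eyes. In the pigment epithelium list the pigment genes Pmel and Dct had ratios of 0.690 and 0.866, while Ttr, not a pigment gene, had 1.10. Set against the median of its markers, Rlbp1 was at -0.40 for Müller glia and -0.44 for the pigment epithelium.

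**Figure D3:**
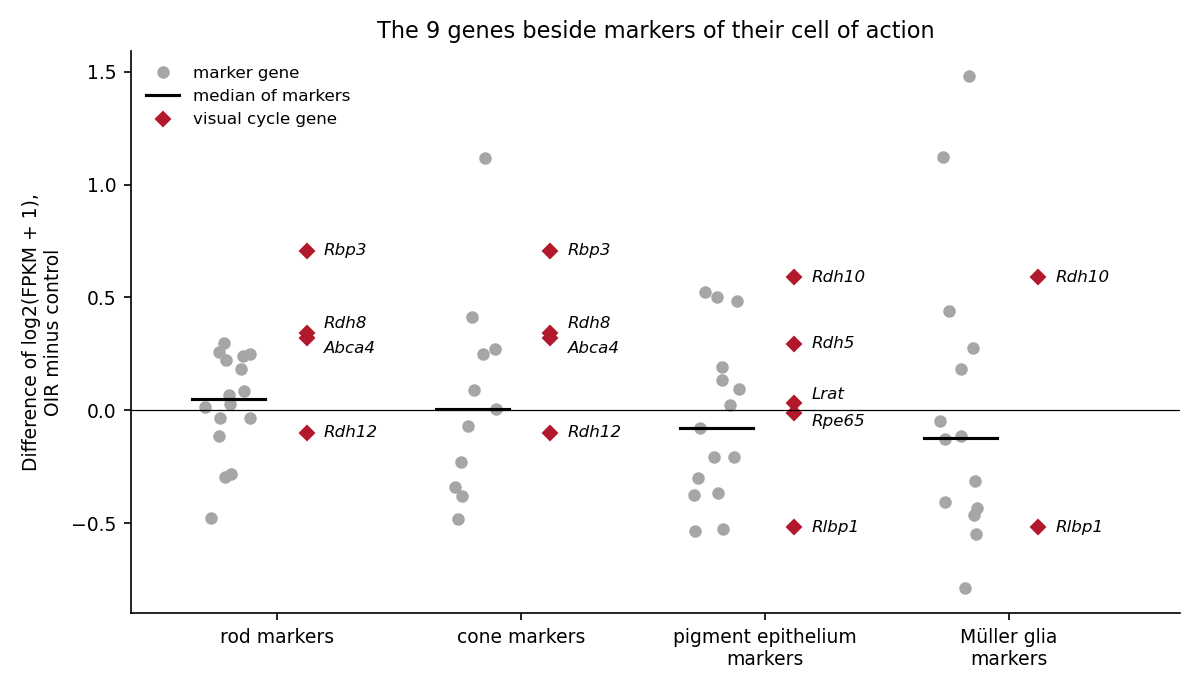
Difference of log2(FPKM + 1), OIR minus control, for tested markers of rods, cones, pigment epithelium and Müller glia (grey points, median as a black bar) and for the visual cycle genes of the same cells (red diamonds). Rbp3, Rdh8 and Abca4 stand above all 16 rod markers, and Rdh10 stands above and Rlbp1 among the lowest of the pigment epithelium markers. The counting intervals of Rdh8 and Abca4 overlap that of the rod marker Cngb1.

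Levels per length depended on the length the authors used. For 7 of the 9 genes the length behind FPKM was, within 1 base, the mean length of all transcripts that GENCODE M21, also on this build, lists for the gene, and for 3 of the 9 it equalled the deposited gene length. Abca4 has 10 annotated transcripts, and its FPKM rested on 2087 bases where the deposited length and longest transcript have 7263. Recomputed on the deposited length, Abca4 stood at 109 FPKM in OIR eyes, against 87.0 in control eyes. Rlbp1, with 8 transcripts, had 125 and 179 FPKM on 2142 bases in place of 1046. Read ratios do not involve the length.

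On the deposited FPKM the order of levels in OIR was Rbp3, Abca4, Rlbp1, Rdh12, Rdh5, Rdh8, Rpe65, Rdh10 and Lrat, and all neighbours differed beyond counting error. In the control Rbp3 and Rlbp1 stood side by side at 374 and 368 FPKM, with a quotient of 1.02 (0.991 to 1.05), and Rpe65 and Rdh8 were likewise not apart beyond counting error, at 1.01 (0.935 to 1.10). On this scale the Rbp3 transcript was above that of Rlbp1 in OIR, at 612 and 256 FPKM, and level with it in the control. Their equality in the control depended on the length used. Recomputed on the deposited length, Rbp3 was above Rlbp1 in the control too, with a quotient of 2.085 (2.029 to 2.143). Rdh8 was likewise above Rpe65 in the control on that length, with a quotient of 1.345 (1.242 to 1.456). On the deposited length Abca4 moved from the second to the fourth place in OIR, behind Rlbp1 and Rdh12, and did not differ from Rdh12 beyond counting error. The order of Rdh5 and Rdh8 in OIR also turned, with Rdh8 over Rdh5 at 1.526 (1.422 to 1.638). Rbp3 stayed first and Lrat last in both libraries on both lengths.

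**Figure D4:**
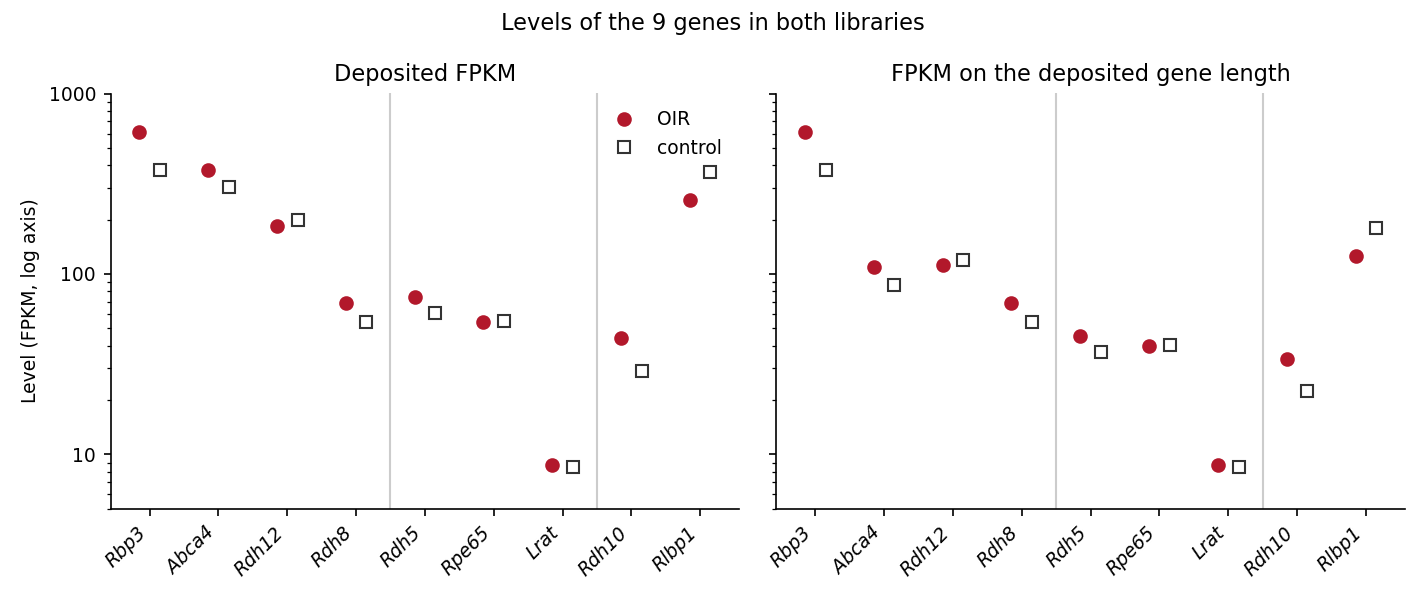
Level of each gene in the OIR library (filled red circles) and the control library (open squares) on a log FPKM axis, as deposited on the left and recomputed on the deposited gene length on the right. Vertical lines part photoreceptor genes, pigment epithelium genes and genes shared with Müller glia. Abca4 drops to 109 and 87.0 FPKM on the right, while Rbp3 and Lrat keep their places.

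Other genes that handle retinoids were followed through 2 lists. Of 17 further dehydrogenases and cycle enzymes 11 were tested, none was 1.5-fold higher or lower, and the median difference was 0.10. Rgr, the retinal G protein-coupled receptor of pigment epithelium and Müller glia, stood at 117 FPKM in OIR eyes, against 109 in control eyes. Dhrs3, a retinal reductase, stood at 73.1 and 66.4 FPKM, and Degs1, a desaturase also described as a retinol isomerase, at 52.6 FPKM in OIR eyes, against 59.3 in control eyes. The list ran from -0.17 for Degs1 to 0.28 for Retsat, the retinol saturase. All 11 thus had differences smaller in size, whatever the sign, than those of Rbp3, Rdh10 and Rlbp1.

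Of 11 genes of retinoid uptake and binding 8 were tested, with a median difference of 0.25, 1 at least 1.5-fold higher and 1 lower. Scarb1, a scavenger receptor that takes up carotenoids, stood at 111 FPKM in OIR eyes, against 73.1 in control eyes, a ratio of 1.52 (1.44 to 1.62). Ttr, the plasma carrier transthyretin made in the pigment epithelium, stood at 468 FPKM in OIR eyes, against 426 in control eyes. Crabp1, a cytosolic retinoic acid-binding protein, was lower, at 14.3 FPKM in OIR eyes, against 23.5 in control eyes, a ratio of 0.609 (0.511 to 0.725). The carriers of the cycle likewise stood on both sides, with Rbp3 higher and Rlbp1 lower.

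Short transcripts stood lower than long ones across the libraries: tested protein-coding genes in the shortest eighth had a median difference of -0.08 and those in the longest of 0.20. The FPKM length of Rbp3 exceeds that of 95.3% of these genes and that of Rlbp1 15.0%. Centred within bins of length, Rbp3 had a difference of 0.48 and Rdh10 of 0.44, neither past 1.5-fold, and Rlbp1 had -0.54. The part of length in these differences was not tested. Lrat, whose length exceeds that of 95.5% of the genes, had -0.20 on that scale. In the authors' deposited table the log2 fold changes were 0.57 for Rbp3, 0.47 for Rdh10 and -0.66 for Rlbp1, and that table marks none of the 9 as changed among its 95 genes up and 7 down.

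**Figure D5:**
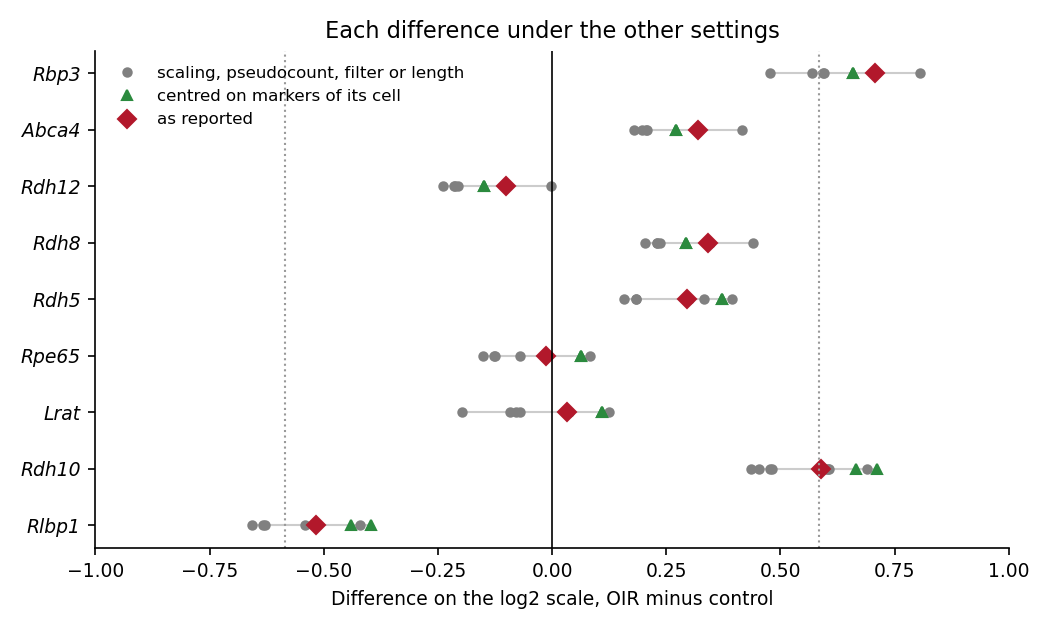
Difference on the log2 scale, OIR minus control, of each gene as reported (red diamonds), under other scaling, pseudocount, filter or length settings (grey circles) and centred on markers of its cell (green triangles). Dotted lines mark 1.5-fold. Rbp3, Rdh10, Rdh8, Abca4 and Rdh5 stay above 0 and Rlbp1 and Rdh12 below 0 under all 13 other settings, and Rpe65 and Lrat lie on both sides of 0. The filter settings among the 13 cannot change a gene's own difference.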

How the data were processed

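RNA from 1 OIR and 1 control eyeball sample was sequenced. Per the labels' protocols, total RNA and the NEBNext Ultra RNA kit were used. The build mm10 and the tools HTSeq 0.6.1, TopHat2 2.0.12 and Bowtie2 2.2.3 are named, per the submitters' processing notes. Their settings, the annotation release and strand use are not stated in the sources used here. Per the file headers, the deposited table holds raw read counts, FPKM, a signal of counts that the authors scaled, from which only the scaling factors were taken, the authors' log2 fold changes and marks of changed genes, quoted for the 9 genes, their p-values, which were not used, and a gene length. After 5 broken lines were dropped, 47644 genes remained.

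The 9 genes and all lists were chosen with earlier results of these data known. Differences of log2(FPKM + 1), OIR minus control, were computed for genes that reached 1 FPKM in OIR or control and called at 2-fold or 1.5-fold by size alone. Ratios of read shares carry exact conditional (Clopper-Pearson) 95% intervals, and quotients between genes carry Wald intervals. Both cover counting error only and take each read as independent. Reads are not independent molecules, so the intervals may be too narrow even for counting error. Named genes were the 9 and, of each list, the highest and lowest by difference. Pathway lists also gave those past 1.5-fold and the 3 most abundant, and cell type lists at most the 3 farthest, not all of which are reported here. Best1, Aldh1a2, Cyp26b1 and the pigment epithelium markers named outside this rule were named after their values were seen. Genes were checked against GENCODE M21. The calculation was tested on simulated counts. Python 3.11.15, pandas 2.3.3 and scipy 1.17.1 were used.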

Additional observations from a re-analysis of the deposited data

How the results depend on the processing

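No paired analysis was possible because each group holds 1 library, so no replicate could be left out either. The settings tried were a pseudocount of 0.1 or 0.01, the filter dropped or raised to an FPKM of 5, CPM, TPM, the authors' scaling factors, centring on the median tested gene, totals without lens crystallin, ribosomal RNA and mitochondrial genes, centring on cell markers and, chosen after seeing the data, the deposited gene length and centring within 20 bins of length. No setting made any of the 9 genes 2-fold higher or lower. The count at 1.5-fold, 2 higher and 0 lower, became 0 higher and 1 lower with the authors' factors, 1 and 1 when centred on the median gene or with the reduced totals, 1 higher on the deposited length, and 0 higher within length bins. The median of the 9, 0.30, was 0.16 with the authors' factors.

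Of all tested genes 487 were 2-fold higher and 114 lower. These counts were 924 and 254 with a pseudocount of 0.1, 998 and 273 with 0.01, and 251 and 27 with the filter of 5, and 30 were lower on CPM. At 1.5-fold, 1447 were higher and 409 lower. With a pseudocount of 0.1, 678 were lower, with 0.01 2259 were higher and 728 lower, and with the filter of 5 752 and 192. The lower count was 726 with the authors' factors, 705 centred on the median, 722 with reduced totals and 653 within length bins. The share of higher genes among those past 1.5-fold, 78.0% as reported, was 58.6% with the authors' factors. With 1 library a group, variation between animals is not measured.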

Other observations

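Retinoic acid is made from the retinal that the cycle also uses. Genes of its synthesis and reception stood on both sides of equal, with more of them higher than lower in OIR. Of 6 genes of synthesis and breakdown 5 were tested, and 1 was at least 2-fold higher in OIR. Their median difference was 0.41, with 3 counting intervals above 1 and 1 below. Aldh1a3, a retinaldehyde dehydrogenase, had 254 reads in OIR eyes, against 82 in control eyes, or 8.46 and 3.54 FPKM, a ratio of 2.39 (1.86 to 3.11). Aldh1a1, the more abundant dehydrogenase of this list, stood at 53.6 FPKM in OIR eyes, against 73.7 in control eyes, a ratio of 0.726 (0.685 to 0.770). Cyp26a1, which breaks retinoic acid down, had 49 and 45 reads, too few to set its ratio of 0.841 apart from 1 (0.550 to 1.29). Cyp26b1, also of breakdown, had 100 reads in OIR eyes, against 44 in control eyes, a ratio of 1.76 (1.22 to 2.56). Aldh1a2, also of synthesis, had 82 and 32 reads, a ratio of 1.98 (1.30 to 3.08). Both of the latter were scarce, near 1 FPKM.

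All 6 receptor genes were tested, with a median difference of 0.32 and 1 of them at least 1.5-fold higher. A difference above 0 was found for 5 of the 6, with 4 counting intervals above 1 and 1 below. Such intervals were found for 36.7% and 14.7% of tested genes. Rxra stood at 31.5 FPKM in OIR eyes, against 24.9 in control eyes, a ratio of 1.27 (1.16 to 1.38). Rara, the retinoic acid receptor alpha gene, stood at 25.6 FPKM in OIR eyes, against 16.6 in control eyes, a ratio of 1.54 (1.39 to 1.71). Rxrb, at 55.3 and 54.7 FPKM, was level, and Rxrg, a retinoid X receptor that cones also use, had 102 reads in OIR eyes, against 124 in control eyes, a ratio of 0.635 (0.484 to 0.832). Over the 4 lists of further retinoid genes together, 30 of 40 were tested, 22 of these had a difference above 0, 3 were at least 1.5-fold higher and 1 lower, and the median was 0.16, against 64.9% above 0 and a median of 0.11 for all tested genes. Genes of other eyeball tissues also differed between the libraries: the median difference of 10 ciliary body and iris markers was -0.30, with Car3 at 12.9 FPKM in OIR eyes, against 33.5 in control eyes, and that of 9 melanocyte markers was -0.29. Their part in these values was not tested.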
